A study of Mus musculus with 23 samples.

Results

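Cabozantinib is a small-molecule inhibitor of receptor tyrosine kinases, and its effect on tumour RNA was measured here as 1 factor of a crossed design. The members are 15 of the 23 bulk libraries of the series, chosen by their labelled ex vivo exposure. The 8 libraries with cabozantinib come from tumour pieces held ex vivo with cabozantinib alone or with cabozantinib plus IL-27, and the 7 without it from pieces held in media or with IL-27 alone. Both kinds exist under each of 2 plasmids given in vivo, so that vector and ex vivo IL-27 could be held as terms while cabozantinib was compared.

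All tumours grew under the flank skin of male C57/BL6 mice aged 8 to 10 weeks from TC2Ras cells. These are TRAMP-C2 mouse prostate adenocarcinoma cells that a lentivirus had made to express activated H-rasG12V, and all 15 libraries share that oncogene. The mice had received 10 µg of plasmid per muscle by sonoporation, which opens cells to DNA with ultrasound and microbubbles, in the tibialis anterior of the leg. EV stands for the pTSTA-ctrl plasmid and IL27v for pTSTA-IL27pepL, the IL-27 plasmid with a pepL peptide sequence; both carry the GAL4 and VP16 parts of the TSTA expression system. The EV groups are media (2 libraries), cabozantinib (2), IL-27 (2) and cabozantinib plus IL-27 (2). The IL27v groups are media (2), cabozantinib (2), IL-27 (1, numbered replicate 2) and cabozantinib plus IL-27 (2). Neither the ex vivo concentrations nor the time of exposure are given in the sources used here. Nothing in the labels ties replicates to separate animals, and the p-values speak for the spread among these libraries alone, part of which may be technical.

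Cabozantinib blocks the kinase domains of MET, the receptor of hepatocyte growth factor, of the VEGF receptors that drive vessel growth, and of AXL, RET, KIT and related receptors. Such receptors signal through RAS and the kinases RAF, MEK and ERK, whose output includes the AP-1 transcription factors of the FOS and JUN families. AP-1 in turn acts at the promoters of secreted proteases and inflammatory mediators. An activated RAS feeds the same chain below the receptors. Cholesterol synthesis is run by another circuit, in which the membrane-bound factor SREBP2 is released when sterols are low and switches on the enzymes of the mevalonate and sterol steps, while INSIG1 holds it back.

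The promoters below belong to a selection of the genes named in the results. They are shown because the first 4 genes were lower and the last 3 higher with cabozantinib, and because the AP-1 and sterol circuits are read through short letters in such windows. Each is the 250 bases before a RefSeq transcription start in build GRCm38.p6, written 5′ to 3′ on the gene's own strand. Capitals mark the AP-1 letters TGANTCA or the sterol element letters TCACNCCAC, searched on both strands. The windows are, in order, chr9:7272264-7272513 (plus strand), chr9:7347124-7347373 (plus), chr1:107511173-107511422 (plus), chr5:90768268-90768517 (plus), chr13:119690101-119690350 (plus), chr5:4104698-4104947 (minus) and chr5:28071162-28071411 (plus).
Mmp13: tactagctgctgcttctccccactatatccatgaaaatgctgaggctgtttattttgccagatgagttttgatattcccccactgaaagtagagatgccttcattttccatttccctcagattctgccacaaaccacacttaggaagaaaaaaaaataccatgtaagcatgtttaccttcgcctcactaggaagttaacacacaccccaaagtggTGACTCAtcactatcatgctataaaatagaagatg
Mmp12: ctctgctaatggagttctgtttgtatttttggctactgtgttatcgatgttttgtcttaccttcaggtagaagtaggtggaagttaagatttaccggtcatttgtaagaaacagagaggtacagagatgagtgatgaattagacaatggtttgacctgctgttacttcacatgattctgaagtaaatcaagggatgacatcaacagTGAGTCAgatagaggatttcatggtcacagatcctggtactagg
Serpinb2: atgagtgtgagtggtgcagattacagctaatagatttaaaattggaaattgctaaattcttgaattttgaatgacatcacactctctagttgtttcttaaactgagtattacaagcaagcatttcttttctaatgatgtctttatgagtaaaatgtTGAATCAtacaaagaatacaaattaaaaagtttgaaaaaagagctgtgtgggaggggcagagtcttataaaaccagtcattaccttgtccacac
Ppbp: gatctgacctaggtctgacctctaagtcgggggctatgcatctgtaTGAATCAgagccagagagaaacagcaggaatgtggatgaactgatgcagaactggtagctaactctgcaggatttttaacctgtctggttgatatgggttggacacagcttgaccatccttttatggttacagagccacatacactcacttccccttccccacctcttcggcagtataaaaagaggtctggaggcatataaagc
Hmgcs1: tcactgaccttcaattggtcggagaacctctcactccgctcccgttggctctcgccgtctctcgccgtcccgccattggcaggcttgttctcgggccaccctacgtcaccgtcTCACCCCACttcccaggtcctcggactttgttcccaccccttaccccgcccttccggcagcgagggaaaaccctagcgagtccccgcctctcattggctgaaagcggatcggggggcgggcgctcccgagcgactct
Cyp51: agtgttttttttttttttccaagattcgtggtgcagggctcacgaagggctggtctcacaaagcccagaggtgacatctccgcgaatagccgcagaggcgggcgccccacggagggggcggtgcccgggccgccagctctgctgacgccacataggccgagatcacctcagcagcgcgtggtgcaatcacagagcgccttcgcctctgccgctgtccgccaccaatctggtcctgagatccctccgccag
Insig1: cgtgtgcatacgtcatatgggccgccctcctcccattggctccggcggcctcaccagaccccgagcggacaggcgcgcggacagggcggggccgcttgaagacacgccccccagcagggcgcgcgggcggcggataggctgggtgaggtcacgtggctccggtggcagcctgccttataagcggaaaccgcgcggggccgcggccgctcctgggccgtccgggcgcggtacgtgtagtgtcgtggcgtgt

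The AP-1 letters lie 35 bases before the start of Mmp13, 44 before that of Mmp12, 94 before that of Serpinb2 and 204 before that of Ppbp. For Mmp12 this is the second of 2 annotated starts, and the window of the other start holds no match. Serpinb2 also has 2 starts, and counted from the second the same match lies 181 bases before it. The window of Ptgs2, examined with these, holds no AP-1 letters. The sterol letters lie 137 bases before the start of Hmgcs1 and were not found in the windows of Cyp51, Insig1, Acat2, Lss or Idi1. The CCAAT box, which NF-Y binds and which often accompanies sterol elements, occurs 3 times in the Hmgcs1 window, 29 bases before the Cyp51 start and 216 before the Insig1 start. Among 32851 RefSeq promoter windows of this length, 6.75% hold TGANTCA, 1.05% hold TCACNCCAC and 33.8% hold CCAAT. The genes examined were a selection, so these shares are no test of enrichment. Of the 12 lower genes named first below, Mmp8, Gem, Msr1, Pvr, Rgs16, Cryab and Chst3 were not examined. Hmgcs1 and Idi1 are not among the 12 higher ones. A match describes letters in a window and is not evidence that a factor sits there.

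Library totals ran from 58932770 to 83088346 estimated counts. Levels are given in CPM, counts scaled by TMM to a common library size, and 1 CPM stood for 53 to 79.1 counts. Replicates of a group correlated across genes at 0.925 to 0.965, and all pairs of libraries at 0.883 to 0.966. The libraries fall into 3 sets that the labels do not name, told apart by Ngp, a neutrophil granule protein, and by the sum of 13 skeletal muscle genes. Set A holds the EV media, EV cabozantinib and EV IL-27 libraries, whose muscle sum was at most 17.2 CPM. In set B, EV cabozantinib plus IL-27 and IL27v media, the muscle sum was 476 to 754 CPM and Ngp was at 13.9 to 20.0. In set C, the other IL27v libraries, the muscle sum was 605 to 952 CPM while Ngp was at 0. Set A has 4 libraries without cabozantinib and 2 with it, set B 2 and 2, and set C 1 and 4. Only the EV pieces without IL-27 (set A) and the IL27v pieces with IL-27 (set C) allow a comparison within a set, so the leading results below are also given with the set as a further term. Gene coordinates below are those of build GRCm38. As for the tissue, Vim and Hras were present in both arms, at 4934 and 23.2 CPM on average with cabozantinib. The epithelial markers differed from each other. Epcam was almost absent (0.116 CPM with and 0.166 without), and Krt18 reached at most 1.08 CPM. Krt8 ran from 1.14 CPM (IL27v media 2) to 38.8 CPM (EV IL-27 1).

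No gene passed for the cabozantinib main effect. Of 22957 genes tested, edgeR's quasi-likelihood test called 0 (0%) at 0.05 after Benjamini-Hochberg adjustment. At an unadjusted p under 0.05 there were 898 genes (3.91%), 437 of them higher with cabozantinib (1.9%) and 461 lower (2.01%). That share is below the threshold of 0.05 itself. With the set of libraries as a term there were 435 (1.89%), and again 0 were called. The smallest adjusted p was 0.369, for Mmp13 and Ppbp. DESeq2, run as the alternative on the same libraries, called 214 of 30830 genes (0.694%), 44 higher and 170 lower. Of these 214, 159 had more than 50% of their counts in 1 library and 44 averaged at least 1 CPM. The genes named first below are the 12 of smallest p in each direction that had the same sign under each vector with and without IL-27, and none of them was called by edgeR. DESeq2 called 12 of the 12 higher and 11 of the 12 lower ones. Because they were picked by small p in the same libraries, that count is no separate support. What follows is therefore a description of levels, with the error of the leading differences.

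Genes of cholesterol synthesis were higher with cabozantinib as a group. All 13 listed genes were tested and all 13 had a log2 difference above 0, against 46.5% of all genes. Genes of 1 circuit are not independent of each other, and other lists also had a single sign. Skeletal muscle (14 of 14), MHC class II (7 of 7) and adipocyte genes (7 of 7) were all positive. Immediate early (13 of 13), mitochondrially encoded (12 of 12) and erythroid genes (6 of 6) were all negative. At an unadjusted p under 0.05 edgeR placed 11 of the 13 higher and 0 lower, beside 1.9% of all genes higher, and with adjustment over all genes it called none. Their median log2 difference was 0.70, against -0.03 for all genes. With the set of libraries as a term the median was 0.73 and again 13 of 13 were positive. In 11 of the 13 the difference was positive in each of the 4 pairings of vector and IL-27, which held for 4.46% of all genes. The list was drawn up with earlier results of these data known.

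The summed level of the 13 genes came close to separating the arms. With cabozantinib it ran from 1380 to 1820 CPM with a median of 1680, and without it from 712 to 1390 with a median of 1080. The arms met at their edges, as EV IL-27 1 without the drug (1390 CPM) lay just above EV cabozantinib 2 and IL27v cabozantinib plus IL-27 2 (both 1380 CPM). The lowest sums were those of IL27v IL-27 2 (712 CPM) and IL27v media 2 (779 CPM).

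**Figure D1:**
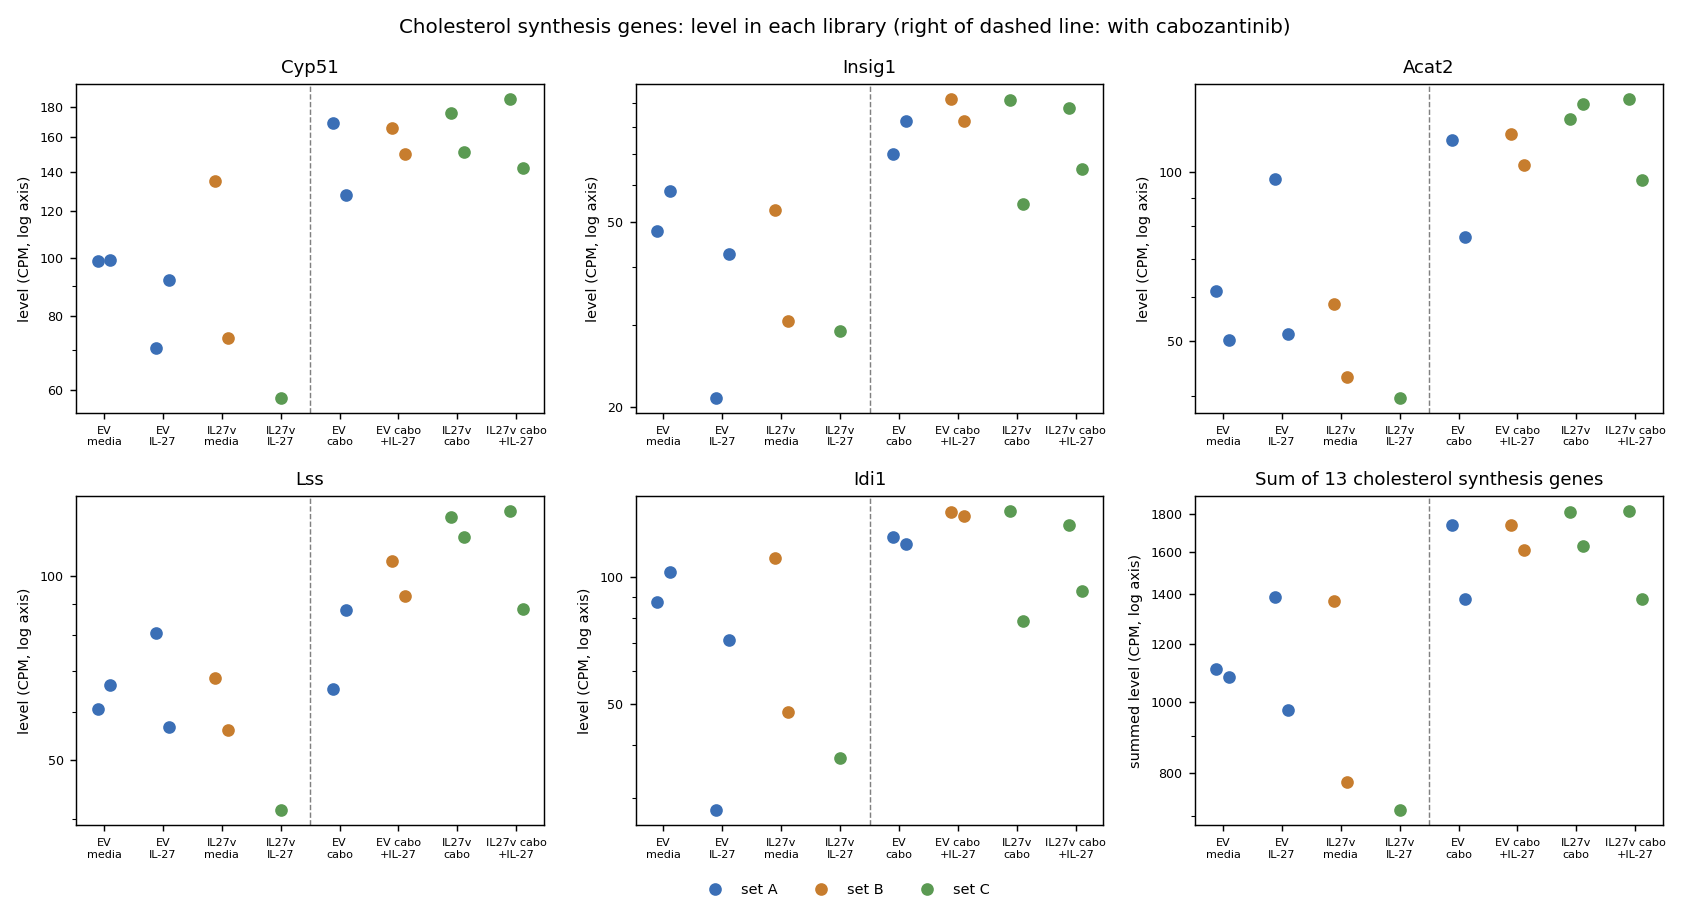
Levels of 5 sterol genes and the sum of the 13 listed genes in each of the 15 libraries, in CPM on a log axis; points are libraries, coloured by set A, B or C, and libraries with cabozantinib are right of the dashed line. The sums with cabozantinib lie between 1380 and 1820 CPM and those without it between 712 and 1390 CPM, so the arms meet only at their edges, while the single genes overlap. Acat2 is shown but does not belong to the 13 listed genes.

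The pathway can be followed from its first steps. Acat2 (chr17:12942890-12960747), which joins acetyl-CoA units at the entry to the mevalonate route, was not on the list and is named by its p. It ran from 76.5 to 135 CPM with cabozantinib (median 116) and from 39.6 to 97.0 without it (median 51.7). All libraries without the drug except EV IL-27 1, at 97.0 CPM, lay below every library with it. Its log2 difference was 0.98 ± 0.20 (SE; edgeR quasi-likelihood adjusted p = 0.63), and 1.00 with the set term. Hmgcs1, which makes HMG-CoA, stood at 137 ± 27.2 CPM with cabozantinib (SD, n = 8) and 82.2 ± 35.1 without it (n = 7), a log2 difference of 0.81. Idi1, an isoprenoid isomerase, was at a median of 129 CPM with and 70.9 without (log2 difference 0.92), and the prenyl transferase Fdps at 272 and 120 (0.70 ± 0.38). Fdps overlapped widely, because EV IL-27 1 had the highest level of all 15 libraries, 602 CPM.

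The sterol steps showed the same direction. Cyp51 (chr5:4081145-4104746), which removes a methyl group from lanosterol and whose promoter is printed above, ran from 128 to 186 CPM with cabozantinib (median 158) and from 58.1 to 135 without it (median 91.8). Only IL27v media 1, at 135 CPM, reached into the range with the drug. The log2 difference was 0.85 ± 0.18 (SE; edgeR adjusted p = 0.63; 0.93 with the set term). Lss, which closes the sterol rings, had medians of 99.3 CPM with and 60.6 without (log2 difference 0.70), and Sqle, which oxidises squalene, 146 and 98.9 (0.50). Dhcr7, a reductase of the last steps, differed by 0.51. Tm7sf2, another sterol reductase that was not on the list, ran from 3.44 to 8.23 CPM with the drug and from 0.914 to 3.78 without it, a log2 difference of 1.40 ± 0.36 (SE). Its arms overlapped only slightly, as 3.78 CPM without the drug exceeded 3.44 CPM with it.

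The brake of the circuit was measured as well. Insig1 (chr5:28071363-28078662), which holds back SREBP2 release, ran from 54.6 to 91.9 CPM with cabozantinib (median 82.4) and from 20.9 to 58.3 without it (median 42.7). The overlap came from IL27v cabozantinib 2 at 54.6 and EV media 2 at 58.3 CPM. Its log2 difference was 1.01 ± 0.22 (SE; edgeR adjusted p = 0.63; 0.89 with the set term). Across the whole list the median difference was 0.43 in EV pieces without IL-27, 0.71 in EV pieces with it, 0.70 in IL27v pieces without IL-27 and 1.36 with it. The last value rests on 1 library without the drug, IL27v IL-27 2, whose sum over the 13 genes was the lowest (712 CPM). The values 0.71 and 0.70 compare libraries of different sets.

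The other genes with the smallest p among those higher belong to no single pathway. Galnt15 (chr14:32028989-32062197), a transferase that starts O-linked sugar chains, ran from 7.79 to 14.2 CPM with cabozantinib (median 10.2) and from 3.20 to 7.29 without it (median 5.03). The arms did not overlap, and the log2 difference was 0.96 ± 0.21 (SE; edgeR adjusted p = 0.63), or 1.08 with the set term. Lrrn3, a leucine-rich repeat membrane protein, ran from 3.96 to 8.39 CPM with and from 1.19 to 3.77 without, again with no overlap (log2 difference 1.08 ± 0.27). Txnip, which binds thioredoxin and restrains glucose uptake, was at a median of 145 CPM with and 83.6 without; its differences in the 4 pairings of vector and IL-27 were close to each other, from 0.77 to 1.00, although libraries ran from 36.9 to 306 CPM. Nr2f1, a nuclear receptor, differed by 0.73, Myzap by 0.85, Rfesd by 0.68 and Agfg2 by 0.93. Over these 12 genes, which were chosen for 1 sign in every pairing, the median log2 difference was 0.91.

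The genes of smallest p with lower levels under cabozantinib included the proteases Mmp13, Mmp12 and Mmp8, the chemokine precursor Ppbp and the cyclooxygenase Ptgs2, none of them called. Mmp13 (chr9:7272514-7283331), collagenase 3, which cuts fibrillar collagen, had in EV media 29.2 and 55.3 CPM, in EV IL-27 24.7 and 320, in IL27v media 118 and 249, and in IL27v IL-27 94.1. With cabozantinib it had 13.4 and 20.7 CPM in EV, 11.1 and 14.9 in EV with IL-27, 11.9 and 22 in IL27v, and 25.4 and 24.4 in IL27v with IL-27. All 8 libraries with the drug lay at or under 25.4 CPM, and of those without it only EV IL-27 1, at 24.7, reached that range. The log2 difference was -2.84 ± 0.48 (SE; 95% interval -3.86 to -1.83; edgeR quasi-likelihood adjusted p = 0.369; DESeq2 adjusted p = 4.97e-07). With the set term it was -1.64, so its size moved with the set of libraries.

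Mmp12 (chr9:7344381-7369499), the elastase of macrophages, and Mmp8 (chr9:7558456-7568485), the collagenase of neutrophils, lie in the same cluster of protease genes on chromosome 9. Mmp12 ran from 55.6 to 177 CPM with cabozantinib (median 130) and from 178 to 2080 without it (median 361). The arms did not overlap, but they met at EV cabozantinib 2 (177 CPM) and EV media 1 (178 CPM). Its log2 difference was -2.27 ± 0.46 (SE; edgeR adjusted p = 0.63) and -0.95 ± 0.57 with the set term. Mmp8 was low throughout, with a median of 2.08 CPM with the drug and 6.39 without, and differed by -2.44 ± 0.54, or by -1.13 with the set term. Of 20 matrix metalloprotease genes tested, a group chosen after values had been seen, these 3 were lower at an unadjusted p under 0.05, beside 2.01% of all genes, and none was higher. The median of the 20 was -0.13. Mmp14, the membrane-bound member, was level at 352 and 343 CPM, and Mmp10, a stromelysin, differed by -0.40.

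Ppbp (chr5:90768518-90770063), the precursor of a chemokine that draws neutrophils, ran from 3.27 to 21.7 CPM with cabozantinib (median 10.3) and from 27.6 to 57.7 without it (median 40.9). The arms did not overlap, and the highest library with the drug was EV cabozantinib 1. The log2 difference was -1.93 ± 0.34 (SE; edgeR adjusted p = 0.369; DESeq2 adjusted p = 1.33e-05) and -1.29 with the set term. Ptgs2 (chr1:150100031-150108227), the inducible cyclooxygenase that makes prostaglandin precursors, ran from 48.3 to 174 CPM with and from 48 to 377 without. Without the drug, EV IL-27 1 (48 CPM) lay just below the range with it, EV media 2 (86.2) and EV media 1 (131) within that range and the other 4 libraries above it. Its log2 difference was -1.43 ± 0.33 (SE), and -1.07 with the set term. Serpinb2 (chr1:107511423-107535478), an inhibitor of the plasminogen activator urokinase, had medians of 119 and 282 CPM and a log2 difference of -1.71 ± 0.42. Urokinase itself, Plau, stood at 61.3 ± 5.19 CPM with cabozantinib (SD, n = 8) and 122 ± 52.2 without it (n = 7), a difference of -0.96 ± 0.27; it was added after its values had been seen. The 8 libraries with the drug lay between 54.6 and 68.0 CPM, while those without it spread from 27.2 to 180.

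**Figure D2:**
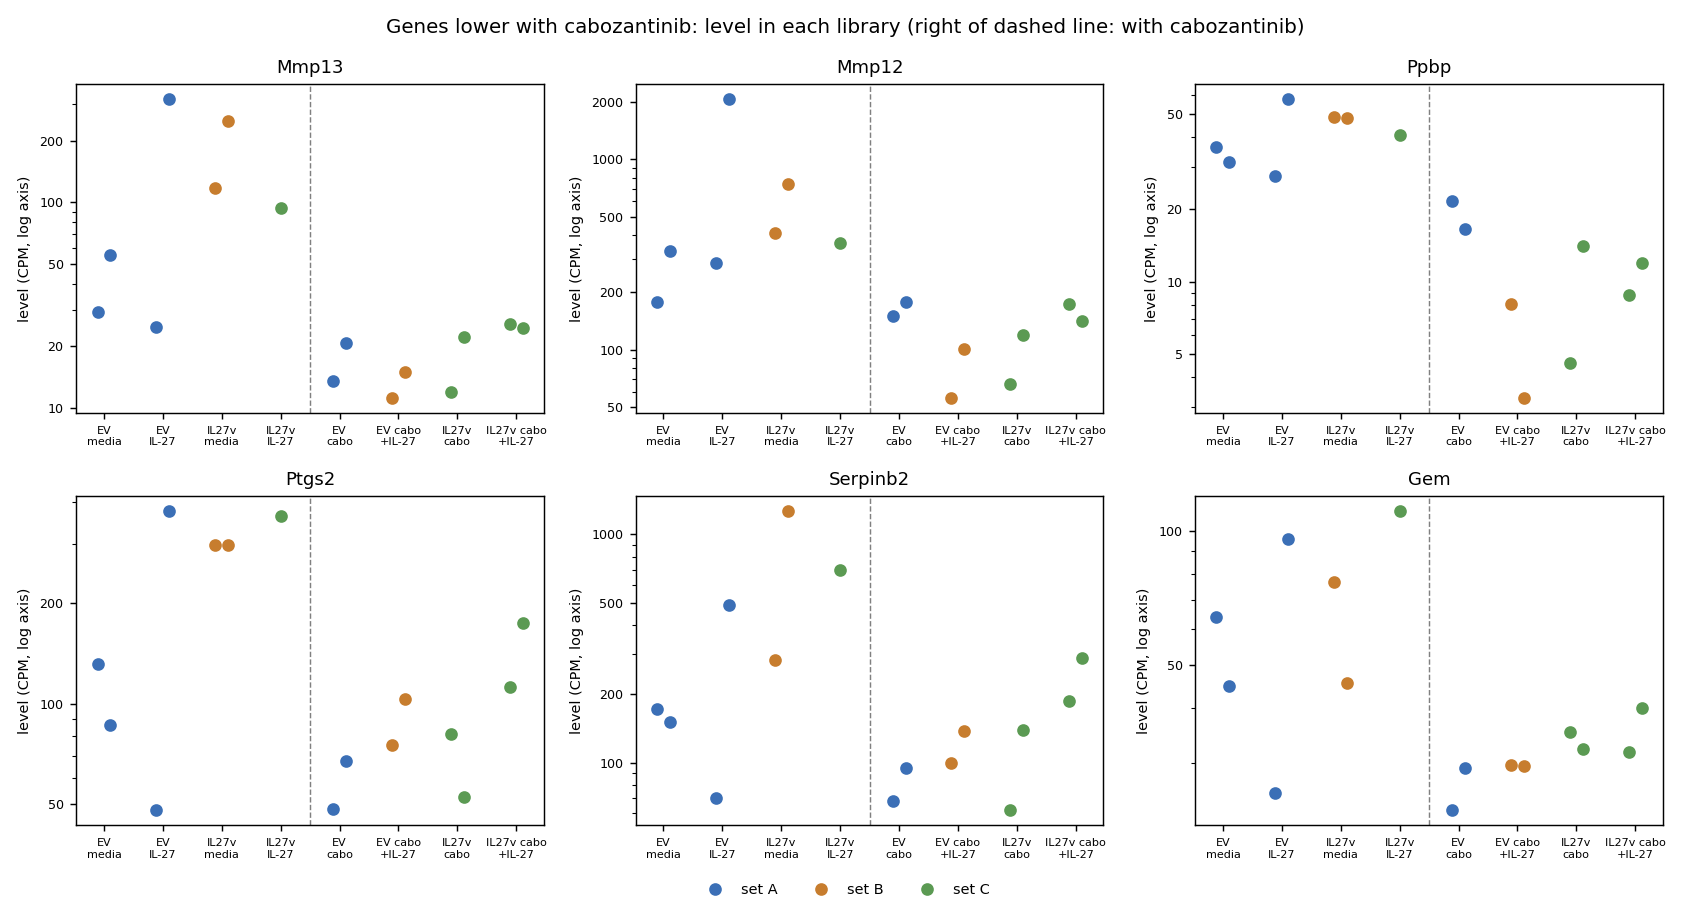
Levels of Mmp13, Mmp12, Ppbp, Ptgs2, Serpinb2 and Gem in each of the 15 libraries, in CPM on a log axis; points are libraries, coloured by set A, B or C, and libraries with cabozantinib are right of the dashed line. Mmp12 and Ppbp do not overlap between the arms, and in the other 4 genes EV IL-27 1 is the lowest library without the drug.

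The remaining genes of this direction act at the cell surface or in signalling. Gem, a small GTP-binding protein that is induced by mitogens, ran from 23.5 to 39.9 CPM with cabozantinib and from 25.7 to 111 without it. Apart from EV IL-27 1 at 25.7, every library without the drug was at 44.8 CPM or more. Its log2 difference was -1.10 ± 0.24 (SE; edgeR adjusted p = 0.63), and -1.27 with the set term. Pvr, a surface protein seen by receptors of natural killer and T cells, was at 105 ± 22.2 CPM (SD, n = 8) with and 174 ± 52.3 (n = 7) without, a difference of -0.78. Rgs16, which shortens G protein signals, differed by -0.98, the small heat shock protein Cryab by -0.84 and the sulfotransferase Chst3 by -1.31. Over the 12 genes of this direction, likewise chosen for their sign, the median log2 difference was -1.57, and -1.10 with the set term.

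Msr1, the scavenger receptor of macrophages, had medians of 19.7 CPM with cabozantinib and 45.9 without it, and a log2 difference of -1.93 ± 0.42 (SE) that was -0.98 with the set term. It bears on which cells were in the pieces, since in bulk tissue fewer cells of a type and less RNA per cell cannot be told apart. The 14 listed macrophage and monocyte genes summed to 382 to 1380 CPM with the drug (median 640) and 594 to 1810 without it (median 841). Their median log2 difference was -0.30, with 10 of 14 negative, and 3 of 14 were lower at an unadjusted p under 0.05, beside 2.01% of all genes. With the set term the median turned to 0.17, and with 1 library left out it ran from -0.46 (without EV media 1) to -0.07 (without IL27v media 2). The 3 were Itgam (-1.24), Arg1 (-0.87) and Mrc1 (-0.96), an integrin chain, arginase and the mannose receptor, whose differences with the set term were -0.13, -0.25 and -0.20. The defining markers Adgre1 and Csf1r differed by -0.23 and 0.23. The highest sum was that of EV IL-27 2, which also had the highest Mmp12, Mmp13 and Msr1. With EV IL-27 2 and IL27v media 2 both left out, an alternative added after seeing the data, edgeR again called 0 genes and the macrophage median was -0.01. What part these cells had in the differences was not tested.

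Leaving out single libraries changed the number of calls in 1 case. Without EV IL-27 1, edgeR called 7 genes. They were Acat2 at a log2 difference of 1.21 (adjusted p = 0.0123) and Aldoc at 1.55, which were higher, and Mmp13 at -2.97 (adjusted p = 0.015), Gem, Ptgs2, Pvr and Plau, which were lower. EV IL-27 1 is the library with the lowest TMM factor, 0.83, and it lay close to the libraries with cabozantinib for most of these genes. It was the highest library without the drug for Acat2 and the lowest for Mmp13, Gem, Ptgs2 and Plau. Its description repeats the library name of the other libraries with IL-27 alone, so its place in the design rests on its title. Nothing else in the labels sets it apart, and it was kept.

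Genes whose arms did not overlap in any library were few. There were 7 higher (0.0305% of all genes tested) and 4 lower (0.0174%), and all are named here after their values were seen. Besides Galnt15 and Lrrn3, the higher ones were Erg28, Dpysl2, Gm29718, Gm36696 and AC165962.1. Erg28, a membrane protein whose yeast counterpart tethers enzymes of sterol synthesis, ran from 33.4 to 43.2 CPM with cabozantinib and from 24.2 to 32.4 without it. Dpysl2, which binds tubulin in growing neurites, ran from 35.2 to 62.5 CPM with and from 26.1 to 33.6 without. The Gm and AC loci averaged under 2 CPM. Besides Ppbp and Mmp12, the lower ones were Csnk2a2, a catalytic subunit of casein kinase, at 147 to 186 CPM with and 190 to 236 without, and Gm12264 at about 1 CPM.

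The difference was followed across the 4 pairings of vector and ex vivo IL-27, which is where the crossed design adds to a single contrast. The log2 difference of Mmp13 was -1.27 in EV pieces without IL-27 and -2.78 in those with it, and in IL27v pieces it was -3.40 without IL-27 and -1.92 with it. Within the first and last of these, which each lie in a single set of libraries, Ppbp differed by -0.84 and -2.0, and Ptgs2 by -0.90 and -1.38. The differences of these 3 genes were farther from 0 in IL27v pieces with IL-27 (2 libraries against 1) than in EV pieces without it (2 against 2), a contrast between pairings that was not tested by itself. Acat2 was higher by 0.75 and 1.53 in the same pairings, and Cyp51 by 0.57 and 1.49.

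**Figure D3:**
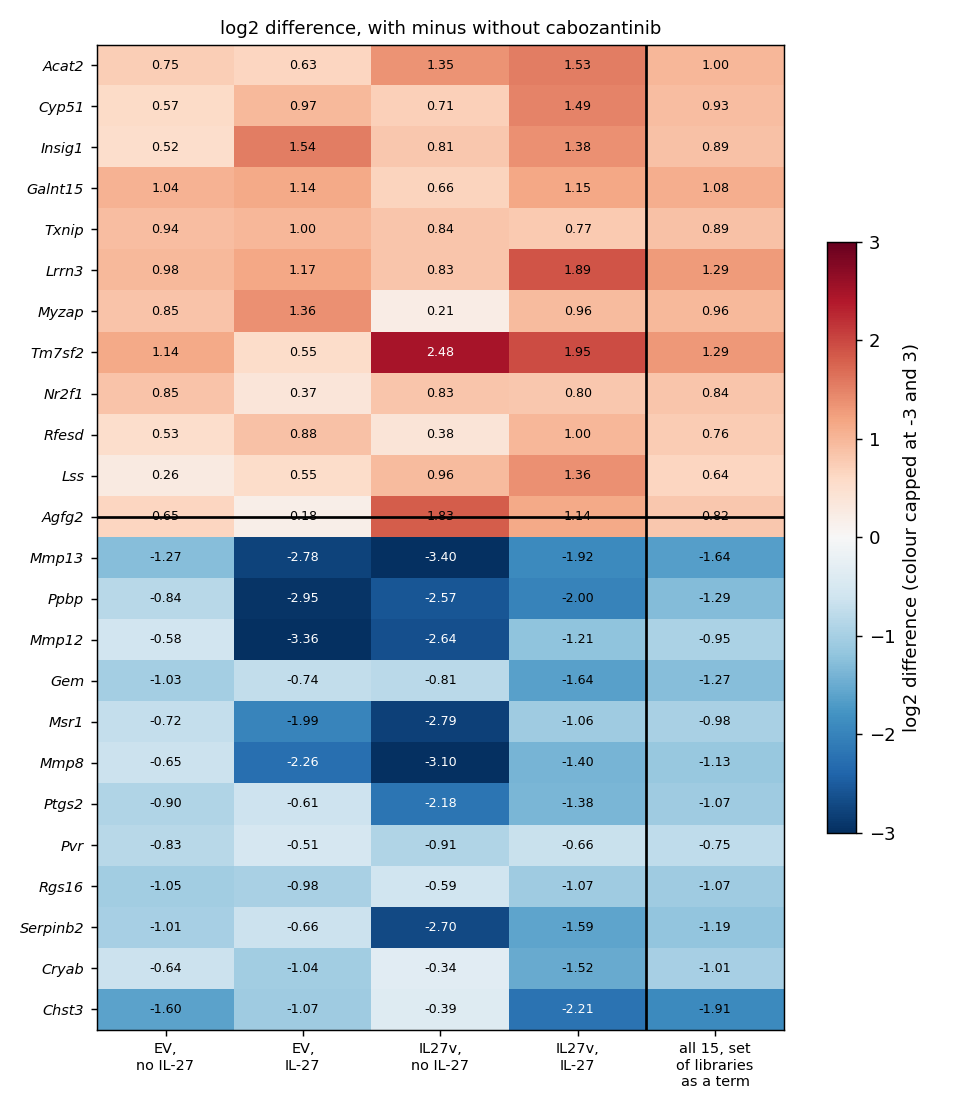
Log2 differences, with minus without cabozantinib, of the 12 higher and 12 lower genes named by smallest p. Columns 1 to 4 are the pairings of in vivo vector and ex vivo IL-27, on log2 CPM. Column 5 is the fit of all 15 libraries with the set of libraries as a term. Red is higher and blue lower. The signs agree across the columns, as the naming rule required for the first 4, and Mmp13 spans -3.40 to -1.27.

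Whether these differences depend on the other factors was tested with interaction terms. For cabozantinib by vector, edgeR called 1 gene of 22957 (0.00436%), Ngp (adjusted p = 0.046), and 2372 genes had an unadjusted p under 0.05 (10.3%). Ngp is the gene that marks set B: it stood at 13.9 to 20.0 CPM in EV cabozantinib plus IL-27 and IL27v media and at no more than 0.121 CPM elsewhere, so that the set and the interaction cannot be told apart. For cabozantinib by ex vivo IL-27, edgeR called 0 (0%), with 2646 at an unadjusted p under 0.05 (11.5%), and DESeq2 called 251. The count for the vector rested on single libraries, with 809 calls without EV IL-27 2, 335 without IL27v IL-27 2 and 804 with DESeq2. The count for IL-27 was 726 without EV IL-27 2. None of the 24 named genes was called for either interaction by edgeR, which does not show that their differences were equal.

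No transcript of the drug's own targets passed. Of 13 listed kinase genes 12 passed the filter on low counts, Ros1 being the exception, and 0 were called (0%) or had an unadjusted p under 0.05 by edgeR, and DESeq2 called none of the 12. The median log2 difference was -0.01, over a range from -0.80 to 0.63. Met ran from 24.1 to 74.1 CPM with cabozantinib (median 47.5) and from 21.0 to 86.3 without it (median 66.4), with a difference of -0.21 ± 0.28 (SE; 95% interval -0.80 to 0.39). Axl, which binds the growth-arrest protein Gas6, ran from 431 to 591 CPM with cabozantinib (median 535) and from 434 to 622 without it (median 539), and its difference of -0.03 had a 95% interval of -0.29 to 0.23. The VEGF receptors Flt1 and Kdr differed by -0.80 (95% interval -1.61 to 0.02) and -0.52 (-1.40 to 0.36). Flt1 is the receptor gene farthest from 0 in this list, and its levels overlapped fully, from 12.8 to 52.0 CPM with the drug and from 5.76 to 101 without. Among 13 ligand genes, Pgf, a ligand of FLT1, was lower at an unadjusted p under 0.05, at 180 ± 44.4 CPM with and 291 ± 107 without (log2 difference -0.65 ± 0.23). It did not pass adjustment, and Vegfa and Angpt2 differed by -0.33 and 0.57.

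None of the output genes of the RAS to ERK chain passed. All 18 were tested; 13 were negative and 5 positive, the median was -0.26 (-0.36 with the set term), and 0 were called by edgeR. The median depended on the libraries used. It was 0.12 in IL27v libraries alone, -0.04 in libraries without ex vivo IL-27, -0.04 without IL27v IL-27 2, and -0.08 and -0.11 without EV cabozantinib plus IL-27 2 and 1. It was -0.13 without EV media 2 and -0.16 without IL27v cabozantinib 2. In set A only the median was -0.305, in set C only -0.29 and without IL27v media 2 -0.31. Its sign changed in 1 of 34 alternatives. At an unadjusted p under 0.05 Spred3, an inhibitor of RAF activation, was lower (-0.44 ± 0.18) and Spry1, another feedback inhibitor, higher (0.93 ± 0.35). Dusp6, the ERK phosphatase often read as a gauge of ERK activity, was at 72.5 ± 16.3 CPM with and 72.0 ± 26.9 without, a difference of 0.03 with a 95% interval of -0.51 to 0.57. The 13 immediate early genes, which include subunits of AP-1, were all negative (median -0.25) where 46.5% of all genes were positive, yet none had an unadjusted p under 0.05 and none was lower in all 4 pairings. In IL27v libraries alone their median was 0.34, in those without ex vivo IL-27 0.13, and with 1 library left out it ran from -0.49 (without IL27v media 1) to -0.09 (without IL27v IL-27 2). With the set term the median was -0.53 and 0 of the 13 were positive. In set A only it was -0.67 and in set C only -0.37. Their summed level followed the sets, from 352 to 503 CPM in set B and from 1090 to 1820 in set C. Fosl1, Fos and Junb differed by -0.38, -0.26 and -0.80.

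**Figure D4:**
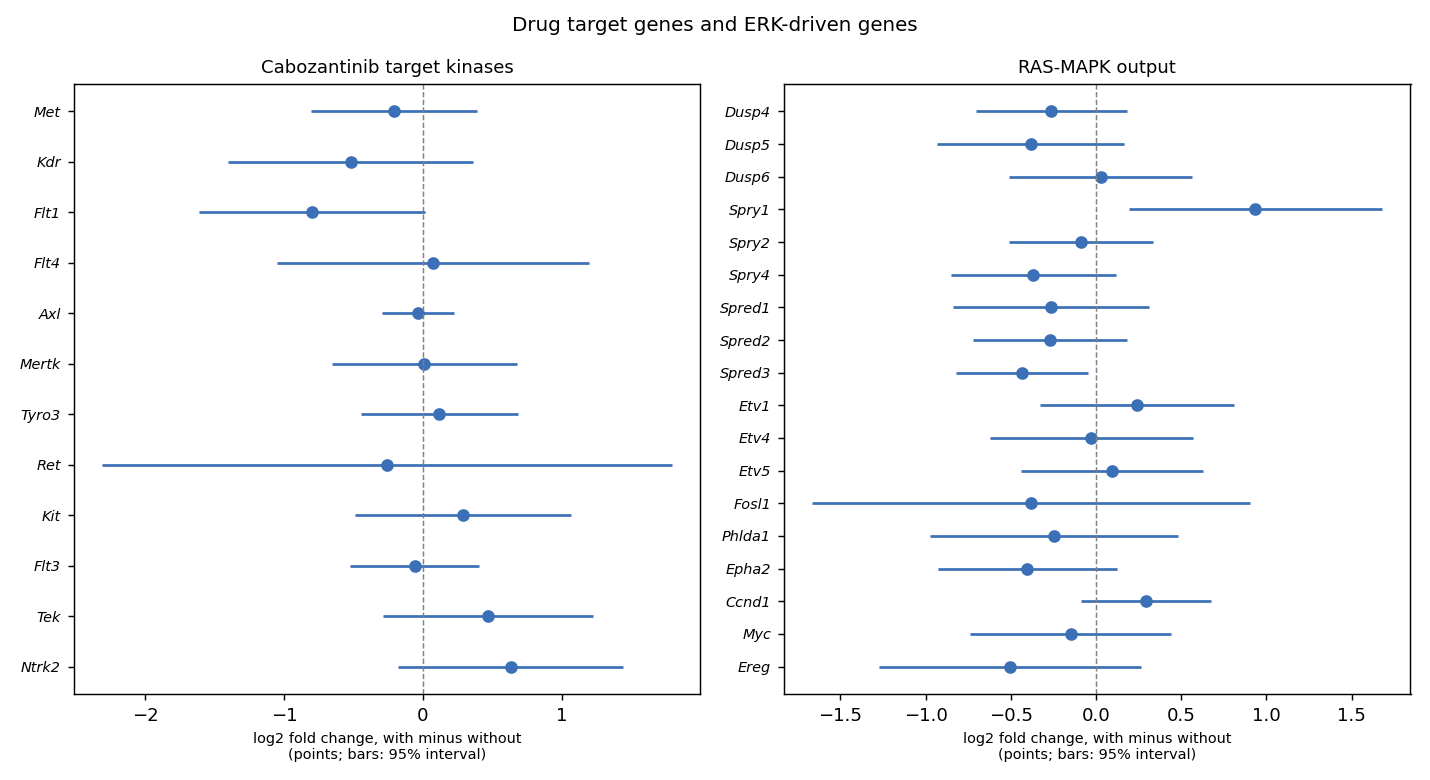
Log2 differences with 95% intervals for 12 cabozantinib target kinase genes (left) and 18 output genes of RAS to ERK signalling (right); points are the fitted difference, with minus without cabozantinib, over 15 libraries. Of the 12 kinase genes all intervals cross 0, and of the 18 output genes only those of Spry1 and Spred3 do not.

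Vessel, growth and stress genes were examined because the drug is used against vessel growth and tumour growth. Of 16 endothelial genes none had an unadjusted p under 0.05, and the median difference was 0.29, or -0.16 with the set term. Pecam1 and Cdh5, which define endothelium, both differed by -0.11. Among 16 mitosis genes the median was -0.11 with none past an unadjusted p of 0.05, and Mki67 was at 194 ± 56.9 CPM with and 222 ± 105 without. Among 16 DNA replication genes 1 was lower at that threshold, Rrm2, a subunit of ribonucleotide reductase, by -0.47. Of 13 p53 targets 9 were negative and 4 positive, with a median of -0.04. Among them Cdkn1a, which halts the cell cycle, differed by -0.57 and Aen by -0.43, while Sesn1 differed by 0.49. Of 11 NRF2 targets and metallothioneins 9 were negative and 2 positive, with a median of -0.30. Hmox1, the heme oxygenase that NRF2 induces, was at 645 ± 286 CPM with and 1029 ± 580 without (log2 difference -0.74), and Txnrd1 differed by -0.44. Cdkn1a, Aen, Sesn1, Hmox1 and Txnrd1 each had an unadjusted p under 0.05, and none was called.

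Immune response genes varied widely between libraries of the same group. The 24 type I interferon genes had a median difference of 0.14, and by pairing of 0.37, 0.69, -1.25 and 0.47; the negative value is that of IL27v pieces without IL-27, where the summed level was 216 and 1670 CPM in the 2 media libraries. In the list of NF-kB targets and inflammatory cytokines, which holds Ptgs2, 13 of 17 were negative with a median of -0.37. That median turned on IL27v media 2, and was 0.20 without this library, -0.07 without IL27v cabozantinib 1 and -0.63 without EV cabozantinib 1. With the set term it was -0.12, with 7 of 17 positive. Lif, a cytokine of the IL-6 family, was the other gene of that list with an unadjusted p under 0.05, with differences from -0.89 to -0.64 in the 4 pairings. T cell genes were close to the limit of detection, with the 14 listed genes summing to 2.01 to 24.3 CPM with cabozantinib and 2.30 to 18.1 without. Cd274, which encodes PD-L1, was at 25.4 ± 14.6 CPM (SD, n = 8) with and 35.6 ± 28.0 (n = 7) without, and the 95% interval of its difference of -0.56, from -1.46 to 0.33, included 0.

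The 12 listed genes of the mitochondrial genome all had a negative log2 difference, with a median of -0.42. It was -0.33 with the set term, -0.26 without EV IL-27 1 and -0.13 in set C alone. These genes encode subunits of the respiratory chain and of ATP synthase. At an unadjusted p under 0.05, mt-Nd1 (-0.50) and mt-Nd2 (-0.62), both subunits of complex I, were lower, 7 of the 12 were lower in all 4 pairings, against 3.92% of all genes, and none was called. Their summed level ran from 13800 to 30100 CPM with the drug and from 22200 to 41400 without it. The arms overlapped, and the lowest library was EV cabozantinib 1. Most of these transcripts are cut from a shared precursor and are not independent of each other. The 14 muscle genes had a median of 2.21 in all libraries and 0.06 with the set term. The sets were themselves drawn in part by the sum of 13 of these genes, so that change is no separate result.

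The other lists described cell types and stress programmes that the pieces could hold. For fibroblasts and matrix, the stroma that makes collagen, 0 of 14 genes had an unadjusted p under 0.05 and the median was 0.04. For the integrated stress and unfolded protein response 0 of 14 had, for hypoxia and glycolysis 0 of 14, for MHC class I presentation 0 of 11 and for MHC class II 0 of 7, with medians of 0.02, -0.18, 0.24 and 0.44. In the lysosome and autophagy list 1 of 15 was higher at that threshold, Map1lc3b, which coats autophagosomes, by 0.44 ± 0.19 (SE), and in the heat shock list 1 of 12 was lower, the co-chaperone Dnajb1, by -0.54. The 7 B cell genes had a median of 0.95 and the 9 keratinocyte genes tested one of -1.13, and none of either list had an unadjusted p under 0.05. Most of their members averaged under 1 CPM in both arms, while the keratinocyte list reached a sum of 623 CPM through Sprr1a. The B cell list reached 266 CPM in IL27v cabozantinib plus IL-27 1, where Ighm was at 216 CPM, and at most 21.2 CPM elsewhere. Neutrophil genes summed to 46.9 to 74.1 CPM in set B, which was drawn by the neutrophil gene Ngp, and to at most 33.4 CPM in the other sets.

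**Figure D5:**
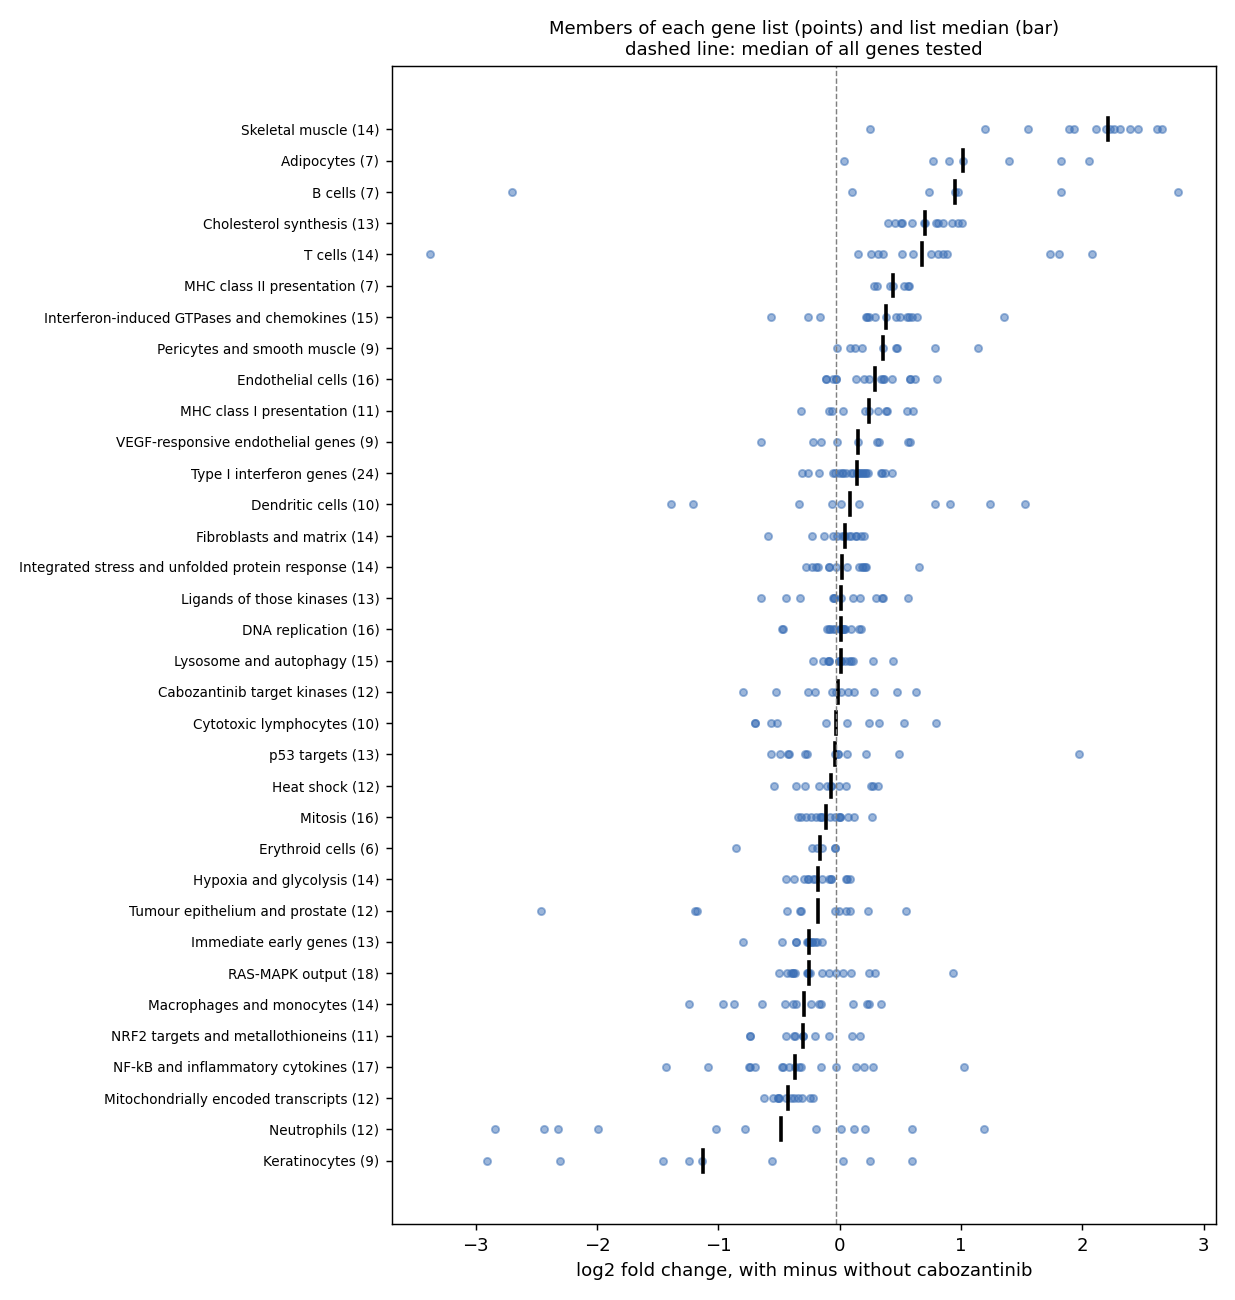
Log2 differences, with minus without cabozantinib, of the tested members of 34 gene lists (points) with each list's median (bar) and the number tested in brackets; the dashed line is the median of all genes tested. The 13 cholesterol synthesis genes all lie above 0 around a median of 0.70. The list farthest right, skeletal muscle, has a median of 2.21 that is 0.06 with the set term. The sets were drawn in part by the sum of 13 of these muscle genes.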

How the data were processed

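Poly(A) RNA from tumour sections was sequenced as stranded paired-end libraries after a check that the RNA integrity number was at least 8, per the labels' protocols. The series table that the authors deposited holds estimated counts for 55401 gene identifiers. Build GRCm38 and the tools HISAT2, StringTie, cutadapt and DESeq2 are named per the submitters' processing notes, with versions, settings and the counting step not given in the sources used here. The deposited estimated counts are whole numbers, so rounding left them as they were. They are not plain read counts, since for 143 genes every column shows an identical value above 0 and 31.7 to 35.3% of values from 1 to 40 are multiples of 4. Symbols and coordinates are those of GENCODE (GRCm38), which named 55141 identifiers. Whether counting used strand is not stated, so overlapping antisense genes and close copies, such as the H2 and hemoglobin genes, are uncertain.

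Samples were grouped by title, because the descriptions of the 3 samples with ex vivo IL-27 alone carry the same library name. The 15 libraries entered an additive model of vector, ex vivo IL-27 and cabozantinib in R 4.3.3 with edgeR 4.0.16 (TMM, filterByExpr by group, quasi-likelihood test, Benjamini-Hochberg over 22957 genes, 11 residual degrees of freedom). Interactions were terms added to that model. SE is the log2 difference divided by the square root of F, and levels are TMM-scaled counts (CPM) computed here. Differences by pairing of vector and IL-27 used log2 CPM with a prior count of 2. A library with 5 CPM of Ngp or more is in set B, one without Ngp whose 13 muscle genes sum to 100 CPM or more in set C, and any other in set A; a fit with the set as a term takes the cabozantinib difference from sets A and C. The code was tested on simulated data with less spread than these libraries, so that test does not show which changes could be called here. Alternatives were DESeq2 1.42.0, other scalings and filters, a replicate block, subsets of libraries and leaving out each library.

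The members and the 34 gene lists (432 genes) were chosen with earlier results of these data known. Some genes of the cholesterol list are not reported here, and were left out of its counts, median and sum whatever their values. With no called gene, the named ones were the 12 smallest p in each direction with a mean of at least 1 CPM, a symbol that is not a Gm or Rik name and the same sign in all 4 pairings, then at most 4 genes of each list, again by p, and a few target and marker genes. Promoters came from the RefSeq table of GRCm38.p6.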

Additional observations from a re-analysis of the deposited data

Results flagged for a closer look

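Levels of 53 genes named in the text were examined in the 8 libraries with and the 7 without cabozantinib, 106 groups in all, for a sample whose gap to its nearest neighbour was large against the range of its group. The criterion met 14 groups. For independent, normally distributed values chance alone meets about 1 in 20. The groups here pool several conditions and the genes are not independent, so that rate need not hold. In all 14 the sample that stood apart was the highest of its group. EV IL-27 1 was the sample that stood apart in 5 of the 14, each time as the highest without the drug. It had 97.0 CPM of Acat2 (next highest 61.4), 602 of Fdps (180), 222 of Fdft1 (133), 73.6 of Mvd (17.2) and 246 of Map1lc3b (146). Of these 5 genes, 4 are enzymes of the mevalonate and sterol route and the last is an autophagosome protein. EV cabozantinib 2 stood apart in 4, with 18.3 CPM of Myzap, 52.0 of Flt1, 52.4 of Spred3 and 40.7 of Sesn1, each the highest with the drug. The other 5 were spread over different libraries. Mmp12 was at 2080 CPM in EV IL-27 2, where the next library without the drug had 740. Cryab was at 262 CPM in IL27v IL-27 2, Sc5d at 113 in IL27v media 1, Dusp6 at 107 in IL27v cabozantinib 1 and Cdkn1a at 312 in IL27v cabozantinib 2.

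The cabozantinib difference of Ngp differed between the vectors by the interaction test (edgeR quasi-likelihood adjusted p = 0.046). The gene is also what defines set B, so the 2 readings cannot be told apart.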

How the results depend on the processing

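The main effect of cabozantinib gave 0 calls by edgeR, and DESeq2 gave 214, no filter on low counts 1 (Mmp13, adjusted p = 0.0216) and the fit of all 23 libraries 1 (Vopp1). Leaving out 1 library at a time gave 0 to 7 calls, the 7 without EV IL-27 1. The vector interaction gave 1 call, 804 by DESeq2, 398 with no filter, 0 with at least 1 CPM in 4 libraries and 0 to 809 with 1 library left out. The IL-27 interaction gave 0, 251 by DESeq2, 64 with no filter and 0 to 726 with 1 left out (1 without EV cabozantinib 2). With a replicate block all 3 counts were 0. Replicate numbers were not taken to pair samples. Deviations of same-numbered samples correlated at -0.253 to 0.306 over 21 pairs of groups, 5 of them above 0.1. Whether samples of some groups share an animal cannot be told from these values. Removal of each library's GC trend and leaving out EV IL-27 2 with IL27v media 2 were added after seeing the data, and both gave 0 calls. All 13 cholesterol genes were positive in each alternative but 3: set A only, EV only and pieces with IL-27 only, each with 12 of 13. Of 53 genes, 10 changed sign somewhere, as did the medians of 29 of the 34 lists, 19 of them with 1 library left out. The 24 genes named by smallest p were chosen for 1 sign in all 4 pairings, so their sign in these alternatives is no support. The genes that changed sign in set A only were Dhcr7 (-0.0561), Dusp6 (-0.314), Itgam (0.256), Arg1 (0.426) and Mrc1 (0.445). In set C only they were Met (0.314), Axl (0.0544) and Mki67 (0.434). With the set term, Met was 0.00787 and Dusp6 -0.192, and without set B 0.0075 and -0.192. In EV only, Mvd was -0.0859, Met 0.215, Axl 0.0098, Mki67 0.117 and Cd274 0.0422, and in IL27v only Axl was 0.0639. With ex vivo IL-27 only, Mvd was -0.0576, Met 0.485, Axl 0.0794, Mki67 0.591 and Cd274 0.0175, and without it Dusp6 was -0.0562. Axl was also 0.0108 with no filter, 0.0138 with the CPM filter, 0.0246 with all 23 libraries and 0.0158 with counts divided by 4. Cd274 was 0.106 without EV IL-27 2 and IL27v media 2. With 1 library left out at a time, Met ran from -0.366 to 0.008, Axl from -0.0668 to 0.0514, Dusp6 from -0.0918 to 0.168 and Mki67 from -0.332 to 0.0694. The cause was not tested. List medians moved by more than their spread in 32 cases, most of them in subsets of libraries. Interactions rest on 1 library of IL27v with IL-27.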
